A study of Mus musculus with 2 samples.

Results

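The genes described here are the ephrins and their Eph receptors, the Slits and their Robo receptors, and the netrins, netrin-G proteins and netrin receptors. They were taken by gene symbol and number 39 of the 31053 genes in the tables. The families held 9 EphA and 5 EphB receptors, 5 ephrin-A and 3 ephrin-B ligands, 3 Slits, 4 Robo receptors, 3 netrins, 2 netrin-G proteins and 5 netrin receptors. Nuclei were isolated from the olfactory bulbs of adult wild-type (WT) mice that had received retroAAV-CAG-H2B-GFP, a retrogradely transported virus whose ubiquitous promoter drives a nuclear green fluorescent protein. In one group the virus was placed in the anterior olfactory nucleus (AON) and in the other in posterior piriform cortex (pPCx), and each group is 1 library of green nuclei obtained by fluorescence-activated nuclei sorting and 10x 3′ sequencing. Per the methods of the study the pPCx library came from 1 female C57Bl/6 mouse, whereas for the AON library only the labels are known, which give neither sex nor exact age. Because the virus can also enter cells without an axon at the injected site, a green nucleus need not belong to a projection neuron.

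Guidance genes of these families steer growing axons and stay expressed in many adult neurons, where several of them act at synapses. Ephrins are membrane-bound ligands that signal through Eph receptor tyrosine kinases, usually as a repellent on contact between cells. Slits are secreted proteins that repel axons through Robo receptors and are classically known for keeping axons from crossing the midline and for placing the tract that mitral cells form on their way to cortex. Netrins attract axons through DCC and repel them through UNC5 receptors, and the netrin-G proteins are membrane-anchored relatives that bind other partners, the netrin-G ligands.

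Promoters are shown for 4 genes on which the results below turn. *Ntng1* and *Robo1* had higher summed levels in projection neurons of the AON library than in its other nuclei. With each nucleus weighted equally, *Robo1* came within 2-fold between projection neurons and GABAergic nuclei. *Epha4* was nearly absent from projection neurons, and *Slit3* was higher in GABAergic nuclei than in projection neurons. Each sequence runs 5′ to 3′ along the gene, from 250 bases before to 50 after the RefSeq start on GRCm38.p6, and capitals mark CG pairs. The windows are chr3:110143423-110143722 on the minus strand (*Ntng1*), chr16:72662899-72663198 on the plus strand (*Robo1*), chr1:77515039-77515338 on the minus strand (*Epha4*) and chr11:35121206-35121505 on the plus strand (*Slit3*). The RefSeq start lies 354843 bases inside the GENCODE M21 gene for *Robo1*, so that window belongs to an internal start and not to the outermost one. For *Ntng1* it lies 539, for *Slit3* 232 and for *Epha4* 0 bases inside.
Ntng1: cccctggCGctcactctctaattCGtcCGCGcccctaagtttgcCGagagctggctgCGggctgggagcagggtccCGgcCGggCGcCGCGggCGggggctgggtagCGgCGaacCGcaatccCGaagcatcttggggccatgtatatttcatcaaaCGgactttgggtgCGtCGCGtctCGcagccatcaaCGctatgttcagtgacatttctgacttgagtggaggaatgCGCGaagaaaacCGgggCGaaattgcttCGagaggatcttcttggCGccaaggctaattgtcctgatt
Robo1: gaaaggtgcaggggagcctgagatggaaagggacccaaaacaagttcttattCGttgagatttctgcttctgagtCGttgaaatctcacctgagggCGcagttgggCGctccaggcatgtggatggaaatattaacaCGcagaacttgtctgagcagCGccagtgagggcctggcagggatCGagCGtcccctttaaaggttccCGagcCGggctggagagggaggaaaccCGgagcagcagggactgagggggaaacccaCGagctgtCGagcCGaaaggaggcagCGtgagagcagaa
Epha4: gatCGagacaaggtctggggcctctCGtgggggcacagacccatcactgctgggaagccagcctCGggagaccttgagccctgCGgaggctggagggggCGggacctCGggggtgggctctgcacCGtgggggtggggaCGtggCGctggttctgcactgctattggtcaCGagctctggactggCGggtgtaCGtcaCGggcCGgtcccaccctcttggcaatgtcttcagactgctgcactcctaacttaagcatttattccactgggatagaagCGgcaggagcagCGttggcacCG
Slit3: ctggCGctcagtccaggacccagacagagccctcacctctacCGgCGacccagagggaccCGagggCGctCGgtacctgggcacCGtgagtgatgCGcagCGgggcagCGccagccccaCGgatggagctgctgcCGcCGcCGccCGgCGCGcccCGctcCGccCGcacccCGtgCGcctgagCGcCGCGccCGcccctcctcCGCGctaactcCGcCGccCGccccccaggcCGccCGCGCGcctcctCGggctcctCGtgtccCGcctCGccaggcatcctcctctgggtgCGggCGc
The *Slit3* window held 41 CG pairs, more than 96.5% of 32851 RefSeq promoter windows, whose median was 7. The *Ntng1* window held 28, that of *Epha4* 17 and the internal window of *Robo1* 15. Of the 39 genes, 34 had such a window. The palindromic EBF consensus was found in 0.904% of all windows and among the 34 only in that of *Robo3*. A T-box motif (AGGTGTGA or, on the other strand, its reverse complement TCACACCT) was found in 1.28% of all windows and in 0 of the 34.

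The AON library held 188 barcodes with 2963064 unique molecular identifiers (UMIs, molecules counted once) and the pPCx library 74 barcodes with 2412067 UMIs. The libraries shared 0 barcodes. Of these, 102 AON and 63 pPCx nuclei had at least 1000 genes and were kept. A nucleus was called a projection neuron where the summed UMIs of *Slc17a7*, *Slc17a6*, *Tbx21* and *Cdhr1* exceeded those of *Gad1*, *Gad2* and *Slc32a1*, GABAergic where the reverse held with at least 3 UMIs of the latter, and otherwise remaining. This gave 25 projection neurons (24.5%, 95% Clopper-Pearson interval 16.5 to 34.0), 47 GABAergic and 30 remaining nuclei in the AON library. The pPCx library gave 59 projection neurons (93.7%, 84.5 to 98.2), 2 GABAergic and 2 remaining nuclei, and the latter 4 are not used in comparisons. With 1 library per group no test was possible. Levels are summed UMIs per 1000000 UMIs of the class (CPM), ratios are between these libraries or classes and not between injection sites in general, and intervals and floors cover counting error only. Injection site, animal, sorting and mix of projection neuron types cannot be told apart.

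The AON projection class was less even than that of the pPCx library. Its nuclei held 3291 to 274993 UMIs (median 38129) and the deepest held 24.6% of the UMIs of the class, compared with 8767 to 167296 UMIs (median 34306) and 7.19% in the pPCx library. In 8 of the 25 AON nuclei, but in 1 of the 59 pPCx nuclei, the excitatory markers led by only 1 or 2 UMIs. Those 8 nuclei held 62490 UMIs together, and the summed level of 6 astrocyte markers was 2080 CPM in them and 99.5 CPM in the other 17. All 6 astrocyte markers and 4 of 5 oligodendrocyte markers were detected in the AON projection class. The astrocyte list stood at 210 CPM in AON and 205 CPM in pPCx projection neurons, but *Slc1a2* alone made up 465 of the 478 UMIs in the latter, and the other 5 genes stood at 77.9 CPM (87 UMIs) and 5.58 CPM (13 UMIs). The oligodendrocyte list stood at 109 and 57.1 CPM, and the olfactory ensheathing glia list at 75.2 and 5.15 CPM. *Aqp4*, a defining astrocyte gene, had 20 UMIs in AON and 3 in pPCx projection neurons. Of the precursor list *Vcan* had 4 and 596 UMIs, *Pdgfra* 2 and 0 and *Cspg4* 0 in both. Of the microglial list only *Cx3cr1* was detected (28 and 67 UMIs), and of the endothelial and mural list only *Flt1* (5 and 15) and *Pecam1* (7 and 31). The markers of the study's T1 tufted type stood at 329 CPM in AON and 5.15 CPM in pPCx projection neurons, and those of its M1 mitral type at 11.6 and 114 CPM. Of the 368 T1 UMIs in the AON class, 291 were of *Olfr111*. The lists of the mitral types M2 and M3 stood at 26.8 and 33.1 CPM in AON and at 66.6 and 148 CPM in pPCx projection neurons. Those of the external tufted types ET1, ET2 and ET4 stood at 15.2, 52.8 and 17.9 CPM in AON and at 27.5, 10.3 and 13.7 CPM in pPCx projection neurons. The share that these cells had in the differences below was not tested, except where values without nuclei of narrow marker lead are given.

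Most of the 39 genes were low or not detected in projection neurons. Of the 39, 25 had at least 10 UMIs over the projection neurons of both libraries. The other 14 had at most 6 UMIs in either library. Among them *Ntn1*, which encodes the classical netrin, had 1 UMI in AON and 6 in pPCx projection neurons, *Ephb6* had 0 and 5, *Epha2* 5 and 0, *Epha4* 3 and 2, and *Epha8* 2 and 0. *Ephb4* and *Efna2* had 1 and 2 each, *Epha1* 1 and 1, *Robo3* 0 and 2, *Ephb3* and *Efna3* 0 and 1, and *Efna4* and *Ntn5* 1 and 0. *Robo4*, the endothelial Robo receptor, had 0 UMIs in each, which allows up to 2.68 CPM in AON and 1.29 CPM in pPCx projection neurons.

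A gene was counted as higher or lower when its level differed at least 2-fold. Between the projection neurons of the 2 libraries, 4 of the 25 genes were higher in the AON library (*Epha7*, *Ephb1*, *Ephb2* and *Ntng2*), while 8.51% of the 13677 genes with at least 10 UMIs were. In the other direction 7 of the 25 were lower in the AON library (*Robo1*, *Slit1*, *Ntn4*, *Unc5a*, *Epha10*, *Efna1* and *Efnb3*), while 12.4% of all genes were. Of these, *Unc5a*, *Epha10*, *Efna1* and *Efnb3* had 2, 5, 2 and 1 UMIs in AON projection neurons and reached the minimum of 10 UMIs only through the pPCx library. *Ephb2*, with 6 UMIs in pPCx projection neurons, reached it only through the AON library. The remaining 14 had log2 ratios of AON over pPCx from -0.93 to 0.78. The median over the 25 was -0.02, beside -0.06 over all genes. Within the AON library, 11 of 25 genes were higher in projection neurons than in GABAergic nuclei (16.5% of 12272 genes) and 10 were lower (16.8%). Among the lower genes *Efna3*, *Efnb3*, *Unc5a*, *Slit2*, *Epha4* and *Epha10* reached the minimum only through GABAergic nuclei. Among the higher ones *Ephb2* and *Unc5b* reached it only through projection neurons. Against the remaining nuclei 11 of 22 were higher (18.5% of 11312 genes) and 6 were lower (25.2%). The 11 include *Slit1*, which had 0 UMIs in remaining nuclei and came to a log2 ratio of 0.46 with 5 UMIs added. They also include *Slit3*, whose direction reversed with equal weight per nucleus. In this comparison *Epha7*, *Slit1* and *Slit3* reached the minimum only through projection neurons, and *Efnb3*, *Epha4* and *Slit2* only through remaining nuclei. The counts of these comparisons are therefore descriptions and not results about the list. *Ntng1*, *Robo1*, *Robo2* and *Unc5d* were higher in AON projection neurons than in both other classes, and *Epha4*, *Efnb3* and *Slit2* were lower than in both, although *Robo1*, *Robo2* and *Efnb3* each came within 2-fold of 1 class with equal weight per nucleus.

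**Figure D1:**
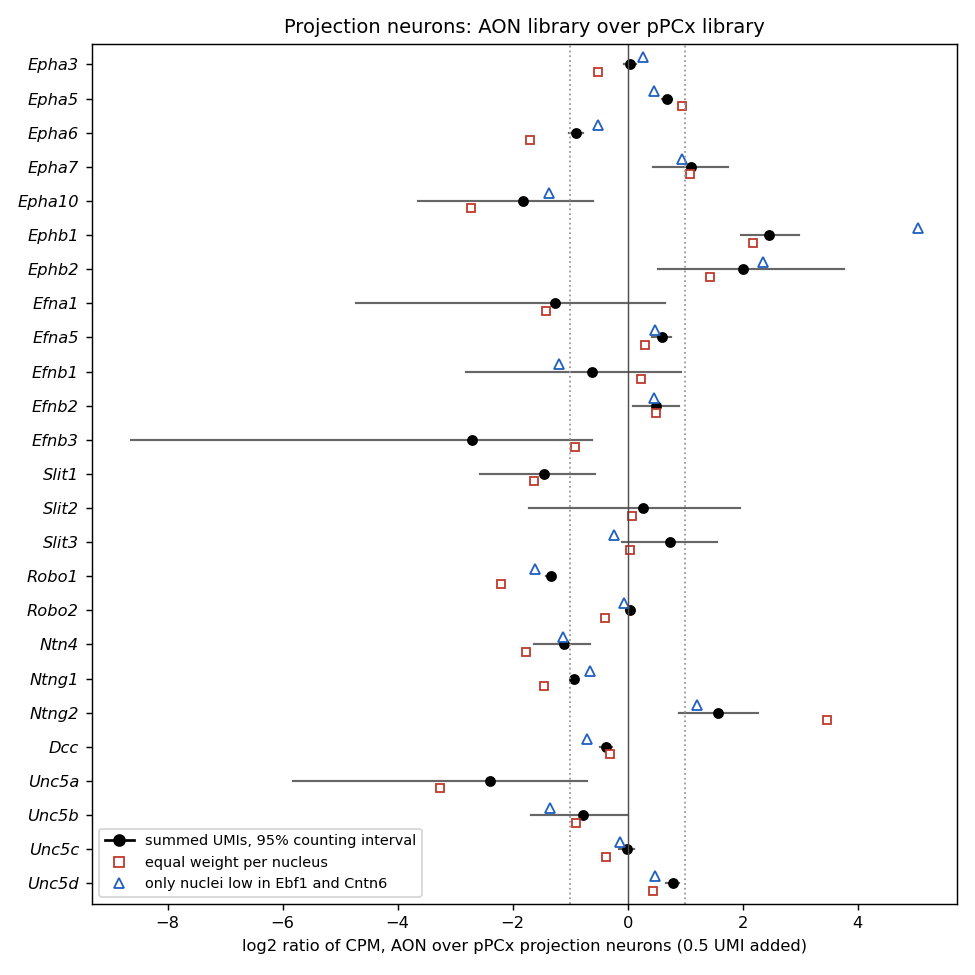
Log2 ratio of AON over pPCx projection neurons for the 25 guidance genes with at least 10 UMIs. Filled circles are summed UMIs with 95% counting intervals, squares weight each nucleus equally, triangles use only nuclei low in *Ebf1* and *Cntn6*, and dotted lines mark 2-fold. *Ephb1* lies furthest to the right at 2.46 and *Efnb3* furthest to the left at -2.71 among the filled circles.

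The Slit ligands differed in the classes that carried them. *Slit3* had 545 UMIs (429 CPM, 393 to 466) in GABAergic nuclei of the AON library, in 31 of 47 nuclei, with a median nucleus at 193 CPM and the highest at 1579 CPM. In AON projection neurons it had 24 UMIs (21.5 CPM) in 5 of 25 nuclei, of which 66.7% lay in the deepest nucleus, and in the pPCx library 30 UMIs (12.9 CPM) in 11 of 59. Thus the GABAergic level was 20.0-fold that of projection neurons (13.3 to 31.4), and the median projection neuron of either library had 0 UMIs. The 2 GABAergic nuclei of the pPCx library had 11 UMIs (184 CPM), and the remaining AON nuclei had 2. Over those 2 UMIs *Slit3* was 5.15-fold higher in AON projection neurons, a direction that reversed with equal weight per nucleus (log2 ratio -0.50).

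*Slit1* was the Slit with the larger difference between libraries. It had 11 UMIs in AON projection neurons (9.84 CPM, 3 of 25 nuclei) and 65 in the pPCx library (27.9 CPM, 23 of 59 nuclei), a 2.84-fold lower level in the AON library (1.49 to 5.96). GABAergic nuclei had 34 UMIs (26.7 CPM, 2.72-fold above AON projection neurons, 1.34 to 5.94) and remaining nuclei 0, so *Slit1* in AON projection neurons was at least 1.57-fold higher than the floor of 3 UMIs in the latter. The log2 ratio over GABAergic nuclei, -1.40, was -0.99 without nuclei over 3 times the median depth. *Slit2* had 5 and 9 UMIs in AON and pPCx projection neurons, with a ratio inside counting error (1.16-fold, 0.305 to 3.85). It was 4.92-fold higher in GABAergic nuclei (28 UMIs, 1.88 to 16.3) and 5.59-fold higher in remaining nuclei (12 UMIs, 1.83 to 20.3) than in AON projection neurons. A single nucleus held 46.4% of the GABAergic *Slit2* UMIs.

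*Robo1* and *Robo2*, the main Slit receptors of neurons, had their highest summed levels in the projection neurons but were detected in all classes. *Robo1* had 8388 UMIs (3603 CPM, 3526 to 3680) in pPCx projection neurons and was found in all 59, from 93.9 CPM in the lowest through a median of 2616 to 8470 CPM in the highest nucleus. In AON projection neurons it had 1595 UMIs (1427 CPM, 1358 to 1499) in 18 of 25 nuclei, with a median of 99.3 CPM and a highest value of 3731 CPM. The groups overlapped, but the median AON nucleus lay close to the lowest pPCx nucleus. That median includes the 8 AON nuclei with a narrow marker lead, of which 3 had *Robo1*. Of the other 17 nuclei, 15 had it, at a summed level of 1498 CPM. The summed level was 2.52-fold lower in the AON library (2.39 to 2.66), and 64.3% of the AON UMIs came from the deepest nucleus. Without the deepest nuclei (those over 3 times the median depth) the log2 ratio was -2.25 instead of -1.34, and without the nuclei of narrow marker lead in either library it was -1.27. Within the AON library *Robo1* was 6.65-fold higher in projection neurons than in GABAergic nuclei (215 CPM) and 7.13-fold higher than in remaining nuclei (200 CPM). Over GABAergic nuclei the log2 ratio was 2.73 by summed UMIs but 0.61 with equal weight per nucleus. The highest GABAergic nucleus stood at 7150 CPM while the median stood at 71.2.

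*Robo2*, in contrast, hardly differed between the libraries. It stood at 1939 CPM (1858 to 2023) in AON and 1889 CPM (1834 to 1946) in pPCx projection neurons, a 1.03-fold ratio whose interval (0.974 to 1.08) includes 1. All 59 pPCx nuclei had *Robo2*, from 702 to 4042 CPM with a median of 1789, whereas 19 of 25 AON nuclei had it, from 0 to 6531 CPM with a median of 1394. Of the 6 AON nuclei without it, 5 were among the 8 with a narrow marker lead. Every GABAergic nucleus had *Robo2* as well, with a summed level of 646 CPM, 3.00-fold below AON projection neurons (2.77 to 3.26). The remaining nuclei stood at 848 CPM, 2.29-fold below (2.06 to 2.55), and at a log2 ratio of 0.68 with equal weight per nucleus.

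**Figure D2:**
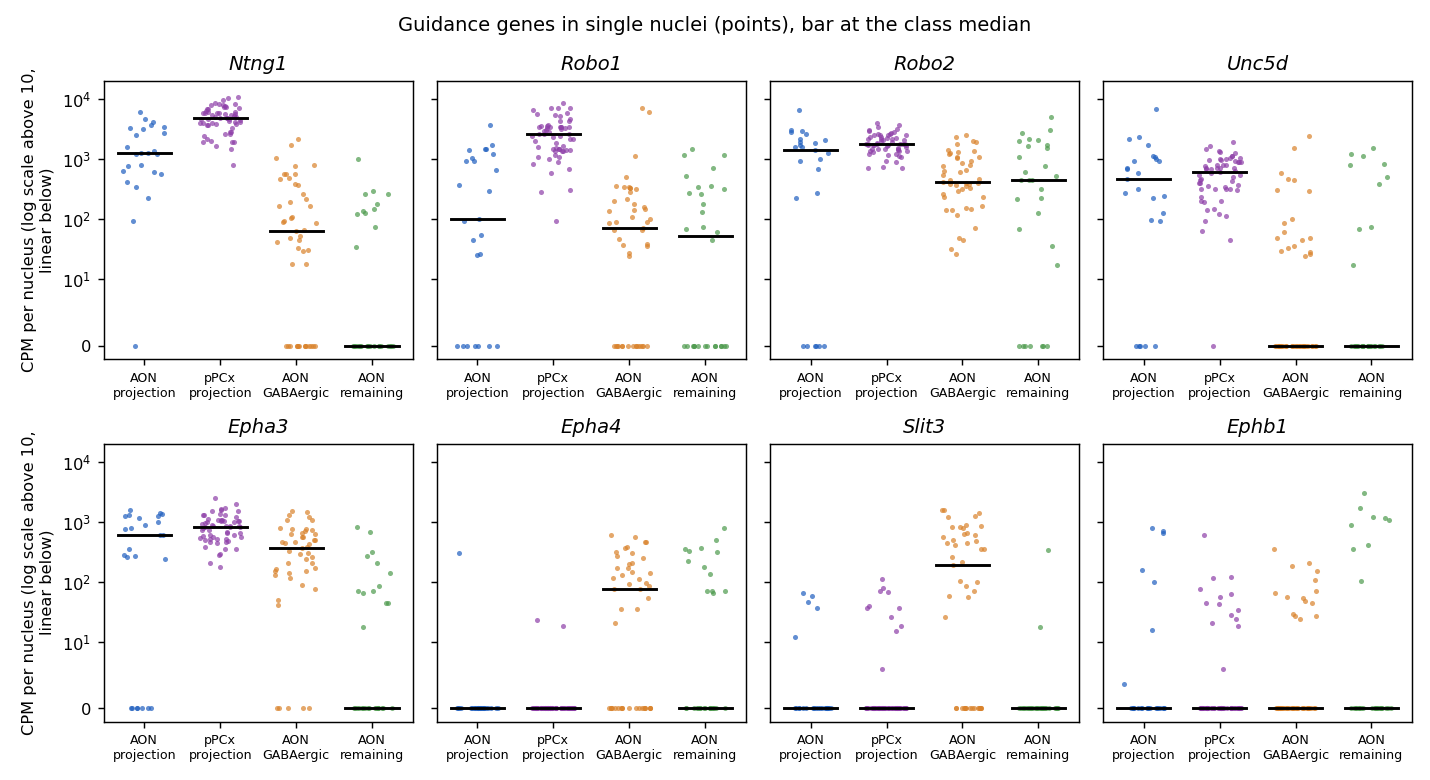
Levels of selected guidance genes in single nuclei by class, as CPM of each nucleus with 1 point per nucleus. Bars mark class medians, which for *Robo1* are 99.3 CPM in AON and 2616 CPM in pPCx projection neurons, and for *Slit3* only the GABAergic median (193 CPM) is above 0 among the 4 classes. The vertical axis is logarithmic above 10 CPM and linear below.

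Of the secreted netrins only *Ntn4*, a laminin-related family member, was above 10 UMIs in the projection neurons of the libraries. It had 45 UMIs (40.3 CPM) in AON and 205 (88.0 CPM) in pPCx projection neurons, a 2.19-fold lower level in the AON library (1.58 to 3.09). GABAergic and remaining nuclei stood at 77.9 and 64.6 CPM, each within 2-fold of AON projection neurons. *Ntn4* was thus spread over all classes.

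*Ntng1*, which encodes netrin-G1, had the largest ratio over remaining nuclei of the guidance genes that were higher in AON projection neurons. It had 12190 UMIs in pPCx projection neurons (5235 CPM, 5143 to 5329), in all 59, from 798 to 10939 CPM with a median of 4793. In AON projection neurons it had 3062 UMIs (2740 CPM, 2644 to 2839) in 24 of 25 nuclei, with a median of 1248 and a highest value of 6046 CPM. The AON level was 1.91-fold lower (1.84 to 1.99), just short of 2-fold, and the log2 ratio of -0.93 became -1.46 with equal weight per nucleus. It was 9.54-fold higher in AON projection neurons than in GABAergic nuclei (287 CPM) and 45.3-fold higher than in remaining nuclei (60.4 CPM, 31.5 to 67.8). *Ntng1* was also the guidance gene with the most UMIs (455, or 4806 CPM) in the 86 AON barcodes that failed the gene filter, and with those barcodes included its log2 ratio over remaining nuclei was 1.80 instead of 5.48. Its relative *Ntng2* went the other way between libraries, with 47 UMIs (42.1 CPM) in 6 of 25 AON and 33 UMIs (14.2 CPM) in 21 of 59 pPCx projection neurons, a 2.97-fold ratio (1.86 to 4.78). One AON nucleus, the shallowest of the class with 3291 UMIs, stood at 3039 CPM through 10 UMIs of *Ntng2*. It was among the 8 nuclei with a narrow marker lead, and the other 17 together stood at 35.1 CPM. The median was 0 in both libraries. With equal weight per nucleus, which counts that nucleus as fully as the deepest, the log2 ratio was 3.47 instead of 1.56. *Ntng2* was 3.15-fold higher in AON projection neurons than in GABAergic nuclei (13.4 CPM) and within 2-fold of remaining nuclei (22.9 CPM).

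Among the netrin receptors *Dcc*, *Unc5c* and *Unc5d* were readily detected and *Unc5a* and *Unc5b* were low. *Dcc*, the attractive receptor, stood at 841 CPM in AON and 1090 CPM in pPCx projection neurons and at 886 CPM in GABAergic nuclei, all within 2-fold. The remaining nuclei had 379 CPM, a log2 ratio of 1.15 that fell to 0.36 without the deepest nuclei of both classes. Of the *Dcc* UMIs of AON projection neurons, 51.0% lay in 1 nucleus. *Unc5c* stood at 594 CPM in AON and 601 CPM in pPCx projection neurons, compared with 45.6 CPM in GABAergic nuclei (13.0-fold lower, 9.95 to 17.3). It reached 1338 CPM in remaining nuclei, 2.25-fold above AON projection neurons (2.02 to 2.51), or a log2 ratio of -1.17 that was -0.61 without the deepest nuclei. *Unc5d* stood at 1112 CPM in AON and 646 CPM in pPCx projection neurons, with 93.6 CPM in GABAergic nuclei (11.9-fold lower, 9.84 to 14.5) and 246 CPM in remaining nuclei (4.52-fold lower, 3.74 to 5.51). These repulsive receptors therefore shared low levels in GABAergic nuclei and differed in the remaining ones. *Unc5a* had 2 UMIs in AON and 27 in pPCx projection neurons (6.48-fold, 1.63 to 56.2), 19 in GABAergic and 0 in remaining nuclei, and it was 8.35-fold higher in GABAergic nuclei than in AON projection neurons (2.01 to 73.9). *Unc5b* had 17 and 62 UMIs in AON and pPCx projection neurons, within 2-fold in CPM, and 3 in GABAergic nuclei (6.45-fold lower, 1.86 to 34.3). The remaining nuclei had 16, a 2.19-fold higher level than AON projection neurons (1.04 to 4.61), under 2-fold without the deepest nuclei (log2 ratio -0.48).

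Of the ephrins, *Efna5* and *Efnb2* were the 2 with appreciable levels. *Efna5* stood at 502 CPM (461 to 545) in AON and 334 CPM (311 to 358) in pPCx projection neurons, a log2 ratio of 0.59. It was 4.17-fold lower in GABAergic nuclei (120 CPM) and close to the projection level in remaining nuclei (450 CPM). *Efnb2* followed the same order with 80.5 and 57.1 CPM in AON and pPCx projection neurons, 21.2 CPM in GABAergic nuclei (3.79-fold lower, 2.44 to 6.07) and 60.4 CPM in remaining nuclei. *Efnb3* had 1 UMI in AON projection neurons, 20 in the pPCx library (9.60-fold, 1.54 to 398), 16 in GABAergic (14.1-fold higher than in AON projection neurons, 2.19 to 590) and 19 in remaining nuclei (44.3-fold, 7.04 to 1839). With equal weight per nucleus the log2 ratio of *Efnb3* over the pPCx library was -0.92 instead of -2.71, and over GABAergic nuclei it was -0.40 instead of -3.27, so both came within 2-fold. Over remaining nuclei it was -1.90 instead of -4.92. *Efna1* had 2 UMIs in AON and 12 in pPCx projection neurons, a difference inside counting error (2.88-fold, 0.641 to 26.5). *Efnb1* had 4 and 14 UMIs, which is also inside counting error. *Efna3* was detected mainly in GABAergic nuclei, with 11 UMIs against 0 in AON projection neurons (at least 3.22-fold higher than the floor of 3 UMIs).

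Among the EphA receptors *Epha3*, *Epha5* and *Epha6* were the abundant members and *Epha4* stood apart. *Epha4*, a receptor that binds ephrins of both classes, had 3 UMIs in AON projection neurons, all in 1 of the 8 nuclei with a narrow marker lead, and 2 UMIs in the pPCx library (0.859 CPM). In contrast it had 175 UMIs (138 CPM, 118 to 160) in 28 of 47 GABAergic nuclei and 63 UMIs (131 CPM, 101 to 168) in 13 of 30 remaining nuclei. The GABAergic level was thus 51.3-fold (17.3 to 251) and the remaining level 48.9-fold (16.0 to 244) that of AON projection neurons. After thinning each nucleus to 5000 UMIs a UMI of *Epha4* was expected in 34.9% of GABAergic and 31.2% of remaining nuclei, but in 3.97% of AON and 0.352% of pPCx projection neurons, over the 47, 28, 22 and 59 nuclei deep enough. Without thinning these shares were 59.6%, 43.3%, 4.00% and 3.39%, at median depths of 26129, 14336, 38129 and 34306 UMIs.

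*Epha3* differed little between the libraries (966 CPM in AON, 937 CPM in pPCx) and was 1.93-fold lower in GABAergic nuclei and 17.8-fold lower in remaining nuclei (54.2 CPM, 12.1 to 27.4). It was found in all 59 pPCx but in 18 of 25 AON projection neurons. *Epha5* stood at 1591 CPM in AON and 988 CPM in pPCx projection neurons, at 1794 CPM in GABAergic nuclei and at 525 CPM in remaining nuclei (3.03-fold lower, 2.65 to 3.47). *Epha6* stood at 592 CPM in AON and 1109 CPM in pPCx projection neurons (1.87-fold), and GABAergic nuclei had more, 1697 CPM (2.86-fold the AON level, 2.62 to 3.13). The remaining nuclei had 89.6 CPM of *Epha6*, 6.61-fold below AON projection neurons (4.85 to 9.22) and within 2-fold with equal weight per nucleus (log2 ratio 0.68). The log2 ratio of *Epha6* between libraries went from -0.90 to -1.70 with equal weight per nucleus. Of its UMIs in AON projection neurons, 46.5% lay in the deepest nucleus.

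*Epha7* had 43 UMIs (38.5 CPM) in AON and 42 (18.0 CPM) in pPCx projection neurons, a 2.13-fold ratio (1.36 to 3.34), and 112 UMIs (88.1 CPM) in GABAergic nuclei (2.29-fold above the AON level). The remaining nuclei had 1 UMI of *Epha7*, an 18.5-fold lower level (3.14 to 746). *Epha10*, a receptor without an active kinase, had 5 UMIs in AON and 40 in pPCx projection neurons (3.84-fold, 1.52 to 12.5). It was highest in GABAergic nuclei with 103 UMIs (81.0 CPM), 18.1-fold the AON projection level (7.51 to 57.0), in 32 of 47 nuclei. Of the 6 EphA genes counted, 4 were lower in AON projection neurons than in GABAergic nuclei (*Epha4*, *Epha6*, *Epha7* and *Epha10*) and 0 were higher, while 16.8% of all genes were lower and 16.5% higher. *Epha4* and *Epha10*, with 3 and 5 UMIs in AON projection neurons, reached the minimum of 10 UMIs only through the GABAergic nuclei. The count is therefore a description and not a result about the family.

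The EphB receptors were sparse outside a few nuclei. *Ephb1* had 125 UMIs (112 CPM, 93.1 to 133) in AON and 47 (20.2 CPM, 14.8 to 26.8) in pPCx projection neurons, a 5.54-fold ratio (3.93 to 7.92). It was detected in a similar share of both, 7 of 25 and 14 of 59 nuclei, with the highest nucleus at 800 CPM in the AON and 610 CPM in the pPCx library. One nucleus held 39.2% of the AON and another 55.3% of the pPCx UMIs. Of the 125 AON UMIs, 123 lay in the 17 nuclei with a clear marker lead. Those 17 also held 100 UMIs of the oligodendrocyte list (94.8 CPM), beside 22 UMIs (352 CPM) in the 8 with a narrow lead. Whether oligodendrocyte RNA had a share in *Ephb1* of these nuclei was not tested. GABAergic nuclei had 29.9 CPM, 3.74-fold less (2.58 to 5.53), and remaining nuclei 623 CPM, 5.57-fold more (4.51 to 6.92). The log2 ratio over remaining nuclei, -2.47, was -1.77 with equal weight per nucleus and -1.03 without the deepest nuclei. *Ephb2* had 12 UMIs in AON and 6 in pPCx projection neurons (4.17-fold in CPM, 1.45 to 13.5), 7 in remaining nuclei, and 0 in the 47 GABAergic nuclei, so that it was at least 4.55-fold higher in AON projection neurons than the floor of 3 UMIs.

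The pPCx projection neurons fall into 37 nuclei high and 22 low in the sum of *Ebf1* and *Cntn6*, divided at 500 CPM, with the lowest high nucleus at 1433 CPM and the highest low nucleus at 100 CPM. Of the guidance genes with at least 10 UMIs, 4 of 23 were at least 2-fold higher in the high nuclei (12.4% of 12331 genes) and 2 were lower (6.83%). Each of these higher or lower genes reached 10 UMIs in only 1 of the 2 sets of nuclei, so the counts are a description and not a result about the list. *Slit1* had 63 UMIs in 21 of 37 high nuclei and 2 UMIs in 2 of 22 low nuclei (24.8-fold, 6.58 to 209). *Ephb1* had 46 UMIs in the high and 1 in the low nuclei (36.2-fold, 6.17 to 1459), while *Slit3* had 1 and 29 (36.9-fold lower, 6.12 to 1507). Within 1 library, then, *Slit1* and *Slit3* lay in different projection neurons. *Efna1* (11 and 1 UMIs) was the other gene higher in the high nuclei beyond counting error, whereas *Efnb3* (15 and 5) and *Efnb1* (4 and 10) passed 2-fold inside it. Short of 2-fold, *Robo1* stood at 2591 CPM in high and 4890 CPM in low nuclei, *Dcc* at 767 and 1502 CPM, *Unc5d* at 472 and 868 CPM and *Ntng1* at 5963 and 4310 CPM.

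**Figure D3:**
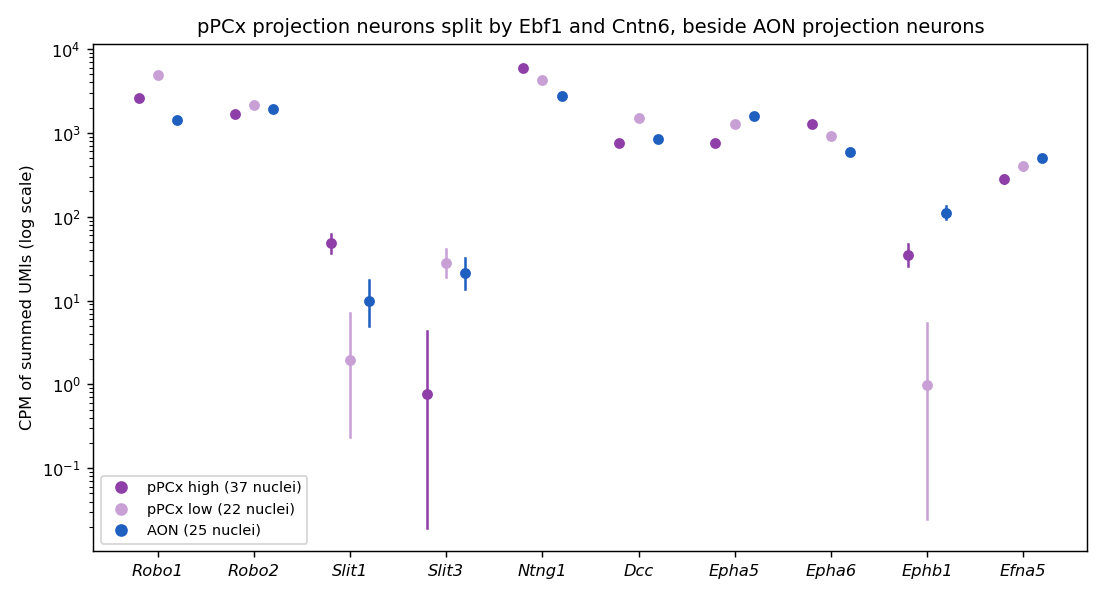
Levels of guidance genes in pPCx projection neurons high (37 nuclei) and low (22 nuclei) in *Ebf1* and *Cntn6* and in AON projection neurons, as CPM on a log scale with 95% counting intervals. *Slit1* and *Ephb1* lie higher in the high nuclei and *Slit3* in the low nuclei.

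In the AON library 2 of 25 projection neurons were over the same 500 CPM and 23 were not. With the low nuclei of both libraries compared, the log2 ratio of *Robo1* was -1.62, that of *Ntn4* -1.13 and that of *Epha10* -1.37, so each stayed at least 2-fold lower in the AON library. That of *Ephb1* rose to 5.05, a ratio over only 1 UMI in the low pPCx nuclei, and that of *Ntng2* was 1.21. *Epha7* came to 0.95, under 2-fold. *Slit1*, *Efna1*, *Efnb3* and *Unc5a* had too few UMIs in the low nuclei to be counted.

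The 30 remaining AON nuclei were split by the glial marker list with the most UMIs, a step chosen after their values had been seen. The astrocyte list led in 18, the oligodendrocyte list in 9, the olfactory ensheathing glia list in 1 and none in 2. *Ephb1* and *Unc5c* lay almost entirely in the 9 oligodendrocyte-led nuclei, with 291 of 299 and 597 of 642 UMIs (1580 and 3242 CPM), each in 8 of the 9. For *Ephb1*, 57.5% of the UMIs of the remaining class came from the deepest nucleus. All 19 UMIs of *Efnb3* were in the same group, in 7 nuclei. By contrast *Efna5* and *Robo2* were found in the astrocyte-led nuclei, with 214 of 216 and 371 of 407 UMIs (786 and 1363 CPM), each in 17 of the 18. *Epha4* was in both, at 173 CPM in astrocyte-led and 86.9 CPM in oligodendrocyte-led nuclei, and *Ntn4* had all of its 31 UMIs in the astrocyte-led ones. *Dcc* stood at 695 CPM in the oligodendrocyte-led and 110 CPM in the astrocyte-led nuclei.

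**Figure D4:**
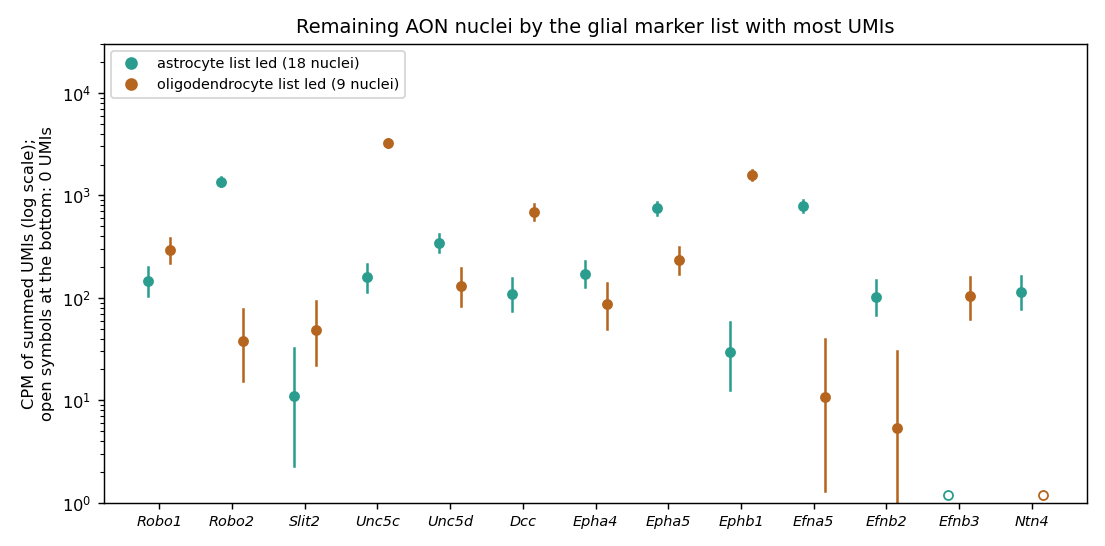
Levels of guidance genes in remaining AON nuclei led by the astrocyte list (18 nuclei) or by the oligodendrocyte list (9 nuclei), as CPM on a log scale with 95% counting intervals and open symbols for 0 UMIs. *Unc5c* and *Ephb1* reach 3242 and 1580 CPM in the oligodendrocyte-led nuclei, and *Robo2* and *Efna5* 1363 and 786 CPM in the astrocyte-led nuclei.

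A list of 36 partner and effector genes of these pathways was read beside them. Of the 33 with enough UMIs, 5 (15.2%, beside 8.51% of all genes) were at least 2-fold higher in AON than in pPCx projection neurons and 2 (6.06%, beside 12.4%) were lower, and their median log2 ratio was 0.05. *Lrrc4c*, which encodes the netrin-G1 ligand, stood at 1081 CPM in AON and 424 CPM in pPCx projection neurons (2.55-fold, 2.34 to 2.77), the opposite direction from *Ntng1*. Within the pPCx library it was 78.2 CPM in nuclei high and 865 CPM in nuclei low in *Ebf1* and *Cntn6* (log2 ratio of high over low nuclei -3.46), and in the AON library it was alike in projection (1081 CPM), GABAergic (1108 CPM) and remaining nuclei (953 CPM). *Kalrn*, an exchange factor that acts downstream of Eph receptors, was 4.07-fold higher in the AON library (3.14 to 5.31). *Dscam*, a netrin receptor, was 2.57-fold higher (1.85 to 3.60), and *Srgap1*, which binds Robo receptors, 2.04-fold higher (1.73 to 2.41). *Srgap1* came within 2-fold with equal weight per nucleus (log2 ratio 0.51 instead of 1.03). In GABAergic nuclei of the AON library *Kalrn* stood at 1429 CPM and *Dscam* at 1082 CPM, beside 157 and 75.2 CPM in its projection neurons. *Srgap1* went the other way, 23.2-fold higher in AON projection neurons than in GABAergic nuclei (13.6 to 42.9). Whether GABAergic RNA had a share in the library differences of *Kalrn* and *Dscam* was not tested. *Ablim3*, an actin-binding protein gene with 7 and 6 UMIs, passed 2-fold inside counting error. With equal weight per nucleus its direction reversed (log2 ratio -0.33). *Nell1*, a gene of the family of Robo3-binding NELL proteins, was 2.39-fold lower in the AON library (2.15 to 2.67) and *Ngef*, the ephexin gene, 3.98-fold lower (2.06 to 8.61). Over GABAergic nuclei 5 of 34 partner genes were higher in AON projection neurons (14.7%, beside 16.5% of all genes) and 13 lower (38.2%, beside 16.8%). Among the 13, *Ablim3* and *Vav2*, with 7 and 2 UMIs in AON projection neurons, reached the minimum only through GABAergic nuclei. Over remaining nuclei 6 of 33 were higher (18.2%, beside 18.5%) and 8 lower (24.2%, beside 25.2%), shares near those of all genes.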

How the data were processed

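The authors sorted nuclei, prepared 10x 3′ libraries and deposited raw counts of UMIs per gene and nucleus made with Cell Ranger (matrix header 3.1.0). The labels name human builds only and the mouse build is not given in the sources used here. Of the deposited identifiers, 31011 (99.9%) were found in GENCODE M21. As in the study, nuclei needed 1000 genes or more and no more than 5% mitochondrial UMIs. No doublet caller was run. UMIs were summed per class, with 0.5 UMI added for log2 ratios. Exact Poisson, Clopper-Pearson and binomial intervals (95%) accompany levels, shares and ratios. Genes with at least 10 UMIs over both classes were counted, and all members were named by that minimum and the 2-fold limit. Scripts (Python 3.11.15, numpy 2.4.6, scipy 1.17.1, matplotlib 3.10.9) were tested on simulated data. Members, lists and classes were chosen with earlier results of these data known. The 11 alternatives covered UMIs added, minimum UMIs, weighting, depth, marker margin, gene filter, centring and nuclei low in *Ebf1* and *Cntn6*. Shares after thinning are expectations at 5000 UMIs over nuclei at least that deep. No member overlapped another gene on its strand. Promoters came from RefSeq (GRCm38.p6).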

Additional observations from a re-analysis of the deposited data

Results flagged for a closer look

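Barcodes that failed the gene filter entered no comparison, yet they held UMIs of the guidance genes. In the AON library 1085 such UMIs lay in 74 of 86 barcodes, a summed level of 11461 CPM (10789 to 12164) beside 9058 CPM in the nuclei that passed. In the pPCx library 130 lay in 10 of 11 barcodes, at 12170 CPM (10168 to 14451) beside 16444 CPM. Both sums are above the 3 UMIs that a count of 0 allows. In the AON barcodes *Ntng1* had 455 UMIs, *Epha5* 155, *Robo2* 147 and *Dcc* 112.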

How the results depend on the processing

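No paired analysis was possible because 1 library stood for each injection site. Of the recomputed ratios of single genes, 2 past 2-fold changed sign, as did 14 within 2-fold. Of 49 ratios past 2-fold, 36 moved by over 1.5 times and 13 came within 2-fold in at least 1 alternative. The cause was not tested. The median log2 ratio of AON over pPCx projection neurons (-0.02) turned to 0.0413 with at least 50 UMIs or with at least 1 UMI, to 0.0220 without nuclei under 8000 UMIs or with at least 2000 genes, and to 0.0464 when centred on all genes. The median over GABAergic nuclei (-0.07) turned to 1.27 with at least 50 UMIs and 0.14 with equal weight per nucleus. It was -0.0733 with 5 UMIs added, -0.104 with at least 1 UMI, -0.347 without the deepest nuclei, -0.0858 without those under 8000 UMIs, -0.0734 at a marker margin of 3 UMIs, -0.0717 with at least 2000 genes, -0.0396 without a gene filter and -0.0290 when centred. *Slit3* over remaining nuclei (2.07) turned to -0.50 with equal weight and -0.0597 without a gene filter. With at least 50 UMIs the lower counts were 3 (libraries), 5 (over GABAergic) and 3 (over remaining nuclei). With at least 1 UMI, 10 genes were higher in the AON library and 14 lower than in remaining nuclei. Leaving out nuclei under 8000 UMIs left 0 remaining pPCx nuclei. Without a gene filter there were 48 AON projection neurons, 89 remaining AON and 11 remaining pPCx nuclei. Between the libraries *Efna1* came within 2-fold with 5 UMIs added or without the deepest nuclei, *Efnb3* with 5 UMIs added or equal weight, and *Epha7* among nuclei low in *Ebf1* and *Cntn6*. Libraries were not replicated, so depth limits the counting intervals only.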
